A study of Homo sapiens with 15 samples.

Results

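Host genes of small nucleolar RNAs (snoRNAs) were examined for splicing and abundance in HCT116 cells, a human colon cancer line. The set held the introns of every gene with an SNHG name and a number, and of GAS5, TAF1D, EIF4A1, EIF4A2, EIF4G2, HSPA8, HSPA9, NCL, RACK1, TNPO2, CWF19L1, RABGGTB, PPAN, EEF2 and DKC1. The deposited tables listed 467 such introns, of 38 genes, among 111143 introns of 11713 genes. Of these, 414 were listed for all 4 clones, 194 held at least 1 of 96 annotated snoRNAs, and 32 were shared with another gene name. The study sequenced polyA RNA of unedited HCT116 cells (WT) and of 4 isolates of the same line labelled bktRNA1-deficient and named KO-1 to KO-4. Each group had 3 libraries, which the labels trace to 3 independent experiments, and each clone was compared with the same WT libraries. Every clone is 1 isolate, and its p-values for intron retention measure the spread between libraries of that isolate and of WT. Those for host gene abundance use a spread pooled over all 15 libraries. Neither measures the spread between independently derived knockouts. No treatment or time course separated the groups, and all were grown in the same medium.

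Most human snoRNAs lie in introns. They are cut out when the host transcript is spliced, the intron lariat is opened, and the ends are trimmed back to the bound snoRNP proteins. Box C/D snoRNAs guide ribose methylation and box H/ACA snoRNAs guide pseudouridylation, mainly of ribosomal RNA. Many hosts encode ribosomal or nucleolar proteins, while the SNHG genes and GAS5 have spliced RNAs with little coding potential that are short-lived and often degraded by nonsense-mediated decay. A host intron that stays in the polyadenylated RNA therefore cannot yield its snoRNA from that molecule. The labels do not say what bktRNA1 does. It is known as a guide RNA of the box C/D kind that directs modification of an RNA of the minor spliceosome.

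The libraries held 17287797 to 35348260 junction reads over 83066 introns listed for all 4 clones, and 12.3% to 13.7% of them were retained reads. Those of KO-1 held 17287797 to 20454252, and every other library at least 27092050, so the calls in KO-1 rest on fewer reads. A retained read crosses an exon-intron boundary and a spliced read joins the flanking exons, so the snoRNA body itself was not counted and no snoRNA level was measured here. Of 11 colon epithelial markers, 5 could be tested. CLDN4 had too few spliced reads, and CDH1, CDX1, KRT20, LGALS4 and VIL1 had no intron listed for all 4 clones. KRT8 averaged 64000 scaled spliced reads in WT, KRT18 25441, KRT19 22917 and CDX2 85.7. EPCAM, an epithelial adhesion molecule, fell in KO-1, KO-2 and KO-4 (log2 changes of -1.06, -0.99 and -0.59) and had 0.14 in KO-3. The keratin KRT19 rose in every clone (0.24, 0.50, 0.46 and 0.79), KRT8 and KRT18 rose in KO-3 (0.53 and 0.60), and CDX2 was called in none. Of 11 markers of other cell types, 1 had introns listed for all 4 clones and could be tested, the collagen gene COL1A1. It was higher in KO-4 by 0.65 on the log2 scale (limma, adjusted p = 0.00121). The part of these differences in the results below was not tested. In bulk RNA, fewer cells expressing a gene and less RNA per cell cannot be told apart. The first 8 bases could be read for 282 of the 467 host introns. None lay within 1 mismatch of the minor-class 5′ splice sites ATATCCTT or GTATCCTT, read on the transcript strand, against 237 of 25295 readable introns on the same chromosomes (0.937%).

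Host gene transcripts went in different directions in different clones. For each gene, the spliced reads of those introns that every table lists were added up and scaled by the median ratio, and these scaled spliced reads served as the measure of spliced host RNA. In KO-4, 22 of the 32 testable hosts fell and none rose, whereas in KO-3 14 rose and 2 fell. In KO-2, 8 rose and 5 fell, and in KO-1 4 rose and 4 fell. Over all 9471 genes the same test (limma with a trend, Benjamini-Hochberg adjustment, adjusted p under 0.05) called 24.6% higher and 24.2% lower in KO-4, and 15% higher and 15.6% lower in KO-3. It called 21.9% higher and 21.1% lower in KO-2, and 13.7% higher and 12.5% lower in KO-1, shares close to those of the hosts in that clone. The median log2 change of the hosts was 0.03, 0.02, 0.14 and -0.29 in KO-1 to KO-4, and that of all genes was 0.00 in each clone. No host rose in KO-4 at an unadjusted p under 0.05 either, nor with limma voom. There were 12 hosts that rose in KO-3 and fell in KO-4 (3.57% of all genes did), and 27 hosts were called in at least 1 clone (75.8% of all genes). In 53 of the 59 host calls the libraries of the clone lay apart from those of WT, against 94.0% of the calls over all genes. Compared among the 4 clones, 28 of 32 hosts differed (limma F test), against 75.4% of all genes.

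**Figure D1:**
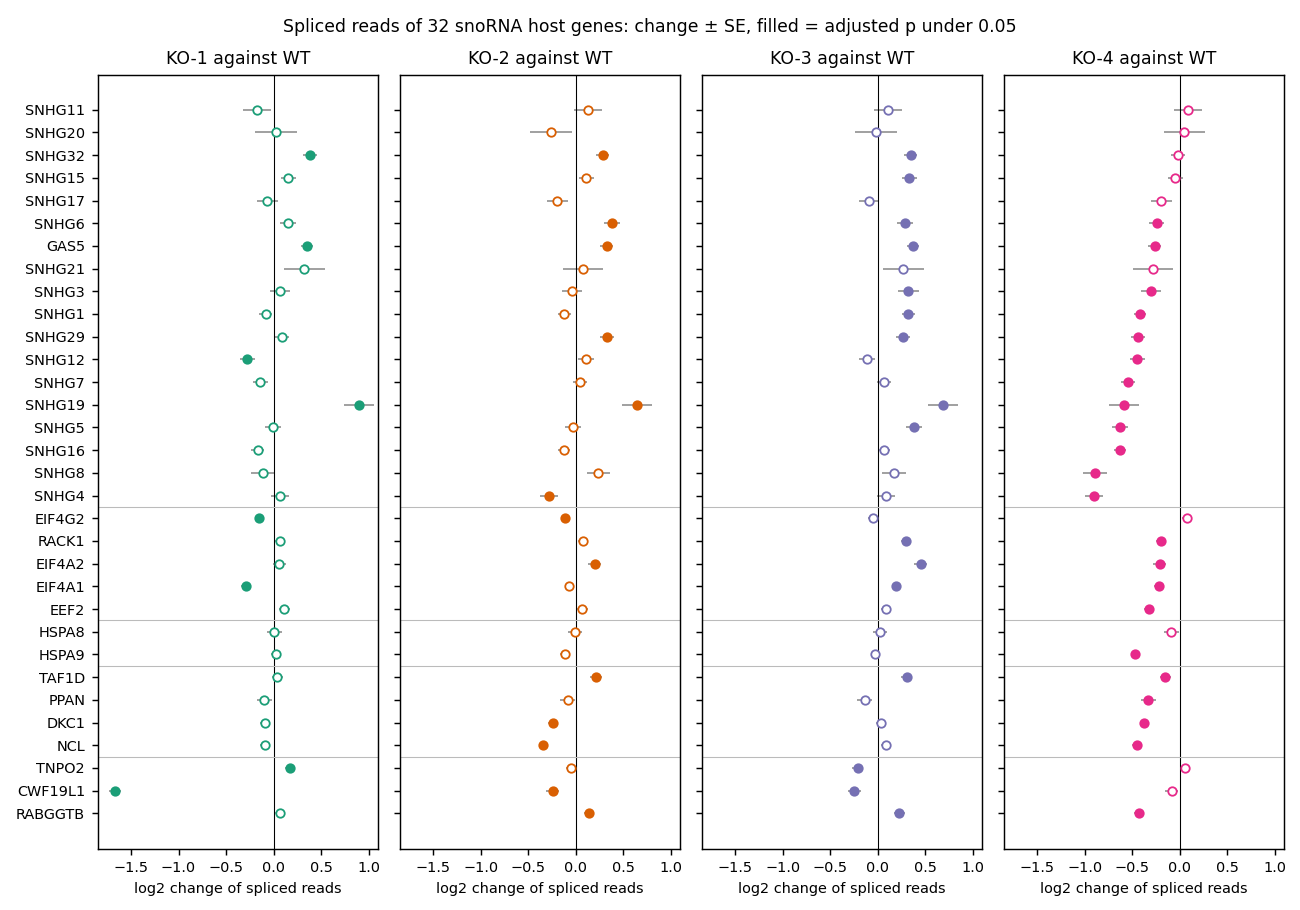
Log2 change of scaled spliced reads with its SE for each of the 32 testable snoRNA host genes in each of the clones against the same 3 WT libraries, with filled points for adjusted p under 0.05. In KO-4 all filled points lie left of 0, in KO-3 14 of 16 lie right of it, and CWF19L1 in KO-1 lies far to the left at -1.67.

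Among the noncoding hosts, 18 could be tested. In KO-1, 3 rose and 1 fell, in KO-2 5 rose and 1 fell, in KO-3 9 rose and none fell, and in KO-4 12 fell and none rose. Their median log2 change was 0.05, 0.09, 0.27 and -0.36. SNHG19, SNHG32 and GAS5 rose in KO-1, KO-2 and KO-3.

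GAS5, a growth-arrest transcript whose introns carry a string of box C/D snoRNAs, had 15177, 13593 and 13378 scaled spliced reads in the WT libraries. The KO-1 libraries held 19001, 16846 and 17953, those of KO-2 17144, 18584 and 17083 and those of KO-3 20568, 16507 and 17562. In KO-4 the values were 11788, 11480.0 and 11699. Every library of KO-1, KO-2 and KO-3 lay above every WT library, and every KO-4 library below. The log2 changes were 0.35 ± 0.07 (SE), 0.33 ± 0.07, 0.37 ± 0.07 and -0.27 ± 0.07 in KO-1 to KO-4, with limma adjusted p of 0.000317, 0.000322, 0.000197 and 0.00181, and each call held when any 1 library was left out.

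SNHG19, the host of SNORD60, showed the same order with larger changes. Its scaled spliced reads were 115, 96.5 and 79.1 in WT, 173, 187 and 177 in KO-1, 155, 152 and 143 in KO-2 and 174, 122 and 174 in KO-3. In KO-4 they were 57.7, 69.6 and 63.8. The WT range did not overlap that of any clone. The changes were 0.90 ± 0.16, 0.64 ± 0.16, 0.69 ± 0.16 and -0.59 ± 0.16 (log2 ± SE; limma adjusted p of 0.000160, 0.00184, 0.00197 and 0.00333). SNHG32, which hosts SNORD48 and SNORD52 in the HLA class III region, had 2769, 2560.4 and 2443 in WT, 3624, 3355 and 3186 in KO-1 and 3532, 2988 and 3362 in KO-3. It rose by 0.39 ± 0.07, 0.28 ± 0.07 and 0.34 ± 0.07 in KO-1, KO-2 and KO-3 (limma adjusted p of 0.000353, 0.00301 and 0.00109). In KO-4 its value of -0.02 ± 0.07 did not pass (adjusted p = 0.831).

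SNHG29, whose introns hold SNORD49A, SNORD49B and SNORD65, had 19772, 16898 and 16222 scaled spliced reads in WT, 22529.9, 22957 and 20899.8 in KO-2 and 12589, 13014 and 13265 in KO-4. It rose in KO-2 by 0.33 ± 0.08 (log2, limma adjusted p = 0.00104) and fell in KO-4, with a log2 change of -0.44 ± 0.08 (adjusted p = 4.78e-05). All KO-4 libraries lay below all WT libraries. SNHG6, the host of SNORD87, rose in KO-2 by 0.38 ± 0.08 (limma adjusted p = 0.000779). The rises of SNHG29 (0.26) and SNHG6 (0.29) in KO-3 and the fall of SNHG6 in KO-4 (-0.25) each lost their call when 1 library was left out. The limma adjusted p was then 0.0884 at most without KO-3 library 1 or WT library 3, 0.0961 at most without KO-3 library 1 or WT library 3 and 0.145 at most without KO-4 library 3 or WT library 1, respectively.

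**Figure D2:**
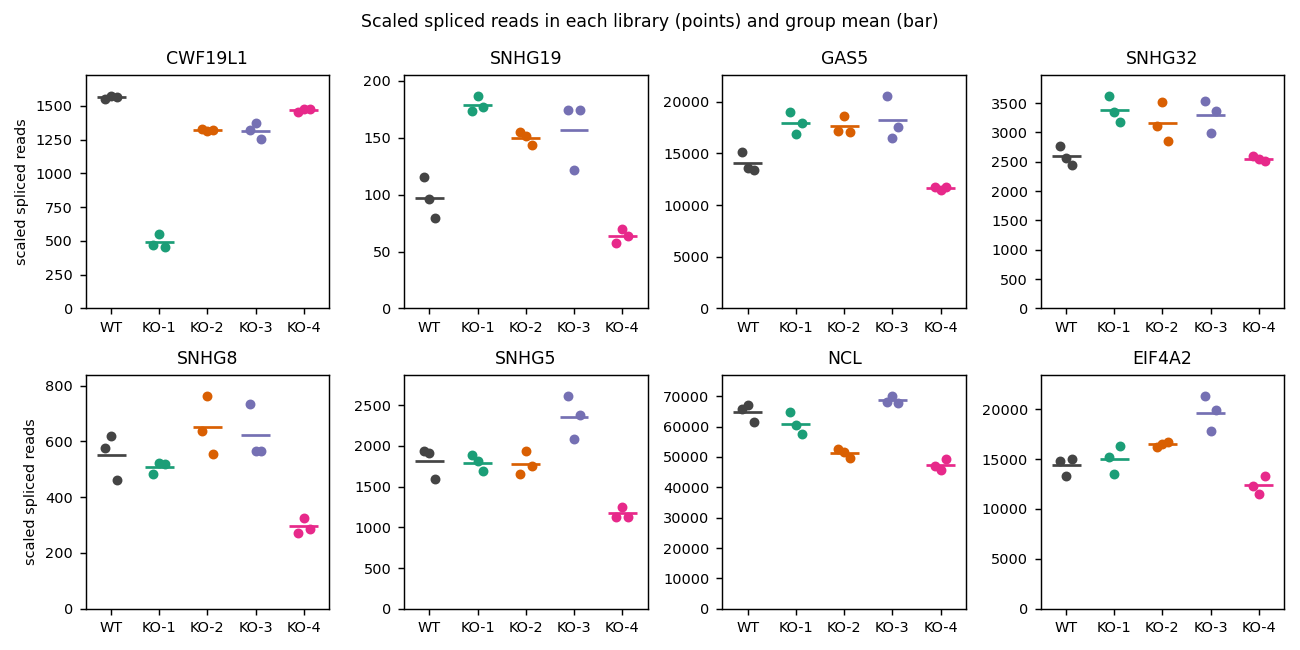
Scaled spliced reads of host genes in each of the 3 libraries of WT and of KO-1 to KO-4, with points for libraries and a bar for the group mean. GAS5 and SNHG19 sit above WT in KO-1 to KO-3 and below it in KO-4, and CWF19L1 is low in all 3 KO-1 libraries.

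The largest fall in KO-4 was that of SNHG4. Its scaled spliced reads were 531, 529 and 529 in WT and 251, 289.6 and 311 in KO-4, without overlap, a log2 change of -0.91 ± 0.09 (limma adjusted p = 4.89e-08). The sum includes 4 introns shared with MATR3, which encodes a nuclear matrix protein. Over introns assigned to SNHG4 alone the KO-4 change was -0.49 (adjusted p = 0.0310). SNHG4 also fell in KO-2 (-0.28 ± 0.09, adjusted p = 0.0192), but its own introns gave -0.11 (adjusted p = 0.662). Without KO-2 library 2 the KO-2 call ended as well (adjusted p = 0.0672). SNHG8 fell almost as far in KO-4, from 577, 619 and 461 in WT to 272, 327 and 287, with a log2 change of -0.90 ± 0.12 (adjusted p = 3.05e-06). SNHG8 was not called in the other clones, where its values were -0.11, 0.24 and 0.17.

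Other noncoding hosts that fell in KO-4 were SNHG16 (-0.63 ± 0.06), SNHG5 (-0.63 ± 0.08), SNHG7 (-0.55 ± 0.08), SNHG12 (-0.45 ± 0.08), SNHG1 (-0.42 ± 0.07) and SNHG3 (-0.30 ± 0.11, all log2 ± SE). SNHG1 and SNHG5 rose in KO-3, by 0.32 ± 0.07 and 0.38 ± 0.08 (limma adjusted p of 0.000790 and 0.00168). SNHG1 carries several box C/D snoRNAs, and SNHG5 held 1938, 1909 and 1591 scaled spliced reads in WT, 2611, 2089.6 and 2374 in KO-3 and 1129.7, 1256 and 1128 in KO-4. SNHG15 rose in KO-3 alone among the calls (0.33 ± 0.08, adjusted p = 0.00313). SNHG12 also fell in KO-1 (-0.28 ± 0.08, adjusted p = 0.0143), a call that ended on leaving out 1 library (0.0900 at most without KO-1 library 3 or WT library 1). SNHG3 rests on 2 introns shared with RCC1, a chromatin-bound exchange factor, and its calls in KO-3 (0.32, also lost with scaling by total spliced reads, adjusted p = 0.0816) and KO-4 ended likewise (adjusted p of 0.130 at most without KO-3 library 1 or 2 or WT library 1 or 2 and 0.180 at most without KO-4 library 1 or WT library 3). SNHG11, SNHG17, SNHG20 and SNHG21 passed in no clone, and SNHG11 held the highest value among hosts in KO-4, 0.08 ± 0.15 (adjusted p = 0.673). SNHG9, SNHG10, SNHG25 and SNHG30 had too few spliced reads to test. No intron of SNHG22 or SNHG26 was listed for every clone, so neither had a sum to test.

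Of the 5 translation hosts, 4 fell in KO-4 and 3 rose in KO-3. EIF4A2, an RNA helicase of the initiation complex, had 14825, 13280.3 and 15006 scaled spliced reads in WT, 21312, 17799 and 19883 in KO-3 and 12347, 11498 and 13342 in KO-4. It rose by 0.45 ± 0.07 in KO-3 (log2 ± SE, limma adjusted p = 4.00e-05). Its rise in KO-2 (0.20) and its fall in KO-4 (-0.21) ended on leaving out 1 library (adjusted p of 0.135 at most without KO-2 library 2 or 3 or WT library 2 and 0.0945 at most without KO-4 library 2 or WT library 3). EIF4A1, the closely related helicase, fell in KO-1 (-0.29 ± 0.05, adjusted p = 7.25e-05) and KO-4 (-0.22 ± 0.05, adjusted p = 0.000474) and rose in KO-3 (0.19 ± 0.05, adjusted p = 0.00378). It held 51393, 50949 and 47828 in WT and 42738, 41731 and 38185 in KO-1, and 10 of its 19 introns are also listed under a read-through with SENP3. RACK1, a scaffold protein of the small ribosomal subunit, rose in KO-3 (0.30 ± 0.05) and fell in KO-4 (-0.20 ± 0.05). EEF2, the translocation factor of elongation, fell in KO-4 (-0.33 ± 0.05, adjusted p = 3.11e-05). EIF4G2, an initiation scaffold, had small falls in KO-1 (-0.15) and KO-2 (-0.11), both lost on leaving out 1 library (adjusted p of 0.0573 at most without KO-1 library 2 or 3 and 0.125 at most without KO-2 library 2 or 3 or WT library 1, 2 or 3). The KO-2 fall also ended over introns of 1 gene name (adjusted p = 0.0544).

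The 4 nucleolar hosts all fell in KO-4. NCL, nucleolin, had 65803, 67096 and 61621 scaled spliced reads in WT, 52454, 51614 and 49547 in KO-2 and 47128, 45559 and 49358 in KO-4. Both clones lay below all WT libraries, with log2 changes of -0.34 ± 0.05 and -0.45 ± 0.05 (limma adjusted p of 1.01e-05 and 1.46e-07). DKC1, the pseudouridine synthase of H/ACA snoRNPs, fell in the same clones (-0.24 ± 0.05 and -0.37 ± 0.05). PPAN, a ribosome assembly factor, fell in KO-4 (-0.33 ± 0.08, adjusted p = 0.00140), but 11 of its 12 introns are shared with another gene name. TAF1D, a subunit of the RNA polymerase I selectivity factor, rose in KO-2 (0.21 ± 0.06) and KO-3 (0.31 ± 0.06) and fell in KO-4 (-0.16 ± 0.06). The last of these was lost on leaving out any of 4 libraries (adjusted p of 0.262 at most without KO-4 library 1, 2 or 3 or WT library 1) and with scaling by total spliced reads (adjusted p = 0.0640). Of the chaperone hosts, HSPA9, the mitochondrial HSP70, fell in KO-4 (-0.47 ± 0.05, adjusted p = 5.29e-08). HSPA8, the constitutive cytosolic HSP70, passed in no clone, its log2 changes lying between -0.09 and 0.02.

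Among the remaining hosts, CWF19L1 showed the largest change of all in KO-1. The gene, which encodes a protein related to a lariat-debranching cofactor of yeast and hosts SNORA12, had 1548, 1574 and 1565 scaled spliced reads in WT and 467, 552 and 458 in KO-1. The KO-1 libraries lay far below WT, a log2 change of -1.67 ± 0.07 (limma adjusted p = 2.12e-14). It also fell in KO-2 (-0.24 ± 0.07, adjusted p = 0.00609) and KO-3 (-0.25 ± 0.07, adjusted p = 0.00793), and KO-4 did not pass (-0.09 ± 0.07, adjusted p = 0.297). All 11 introns of CWF19L1 listed for every clone were lower in KO-1 than in every WT library, with means between 24.1% and 52.8% of WT. In KO-2, KO-3 and KO-4, 6, 4 and 3 of the 11 lay below every WT library. RABGGTB, a subunit of Rab geranylgeranyl transferase, rose in KO-3 (0.23 ± 0.05) and fell in KO-4 (-0.43 ± 0.05, adjusted p = 6.28e-07). Its rise in KO-2 (0.14) ended on leaving out 1 library (limma adjusted p = 0.190 at most without KO-2 library 1 or 2 or WT library 2 or 3). TNPO2, a nuclear import receptor, fell in KO-3 (-0.21 ± 0.05), and its rise in KO-1 (0.17) ended on leaving out 1 library (0.0948 at most without KO-1 library 2 or WT library 1 or 2) or with scaling by total spliced reads (0.0555).

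**Figure D3:**
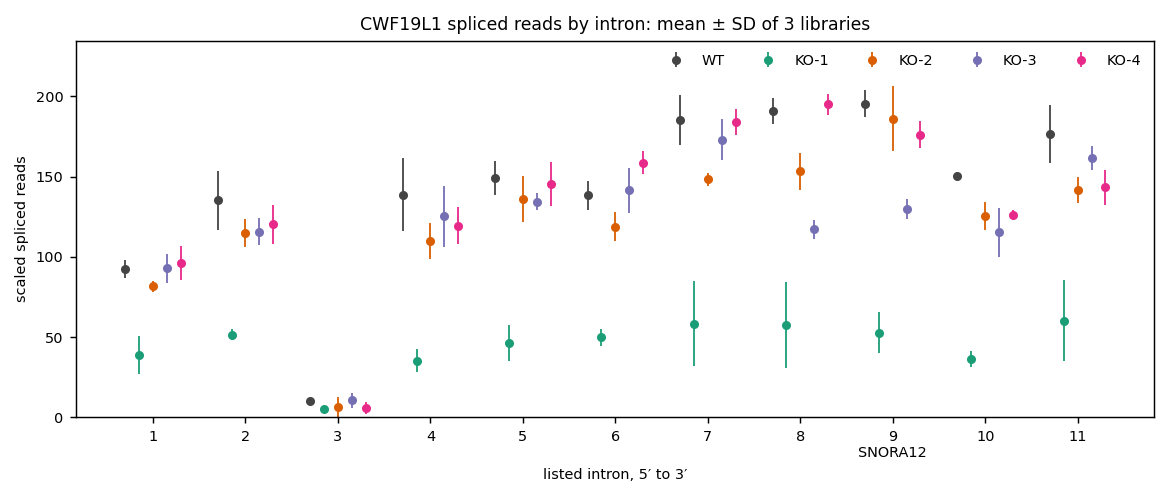
Scaled spliced reads (y axis) of each CWF19L1 intron listed for every clone, from 5′ to 3′ (x axis), as mean ± SD of the 3 libraries of each group. The KO-1 means lie under WT along the whole gene, at 24.1% to 52.8% of WT.

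Many snoRNA hosts belong to the class of mRNAs that begin with a C followed by pyrimidines, a start known to place translation under the control of the mTOR pathway. RefSeq promoter windows (GRCh38.p14) were found for 34 of the 38 hosts. A start at C followed without a break by C or T, for at least 5 bases in all, was present in 10 of them (29.4%), against 1404 of 27305 genes (5.14%). The windows are shown because most hosts with such a run changed in the same pair of clones. Each gives 10 bases before the annotated start and 20 from it, 5′ to 3′ on the transcript strand, with the pyrimidine run in capitals. GAS5 and NCL are given as hosts without such a run at the annotated start.
RACK1 (chr5:181243887-181243916, minus strand): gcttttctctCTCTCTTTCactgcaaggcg
EEF2 (chr19:3985444-3985473, minus strand): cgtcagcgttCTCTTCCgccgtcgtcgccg
EIF4A2 (chr3:186783567-186783596, plus strand): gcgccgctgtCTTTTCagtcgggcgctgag
RABGGTB (chr1:75786246-75786275, plus strand): cctgctctctCCTTTCCCTgttagacatgg
TAF1D (chr11:93741476-93741505, minus strand): aatagccaacCCTTTTCTTCCgcacggttg
SNHG4 (chr5:139274091-139274120, plus strand): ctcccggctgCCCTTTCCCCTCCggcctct
SNHG5 (chr6:85678714-85678743, minus strand): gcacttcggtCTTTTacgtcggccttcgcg
SNHG12 (chr1:28581854-28581883, minus strand): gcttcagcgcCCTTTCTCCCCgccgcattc
SNHG19 (chr16:2155339-2155368, minus strand): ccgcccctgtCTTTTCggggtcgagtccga
SNHG32 (chr6:31834906-31834935, plus strand): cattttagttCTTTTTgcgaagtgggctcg
GAS5 (chr1:173869026-173869055, minus strand): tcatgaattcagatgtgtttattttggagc
NCL (chr2:231464465-231464494, minus strand): ctttcgcctcagtctcgagctctcgctggc
Of the 10 hosts with a run, 7 rose and none fell in KO-3, and 9 fell and none rose in KO-4, where the exception was SNHG32 at -0.02. Of the 20 other testable hosts compared, 5 rose and 2 fell in KO-3, and 12 fell in KO-4. SNHG6, on a chromosome left out of this comparison, and SNHG15 were testable but are in neither group. Both rose in KO-3, and SNHG6 fell in KO-4. The median log2 changes were 0.30 with a run and 0.07 without in KO-3, and -0.38 and -0.29 in KO-4. The difference between the groups of hosts was not tested, and a match or its absence describes the annotated window only. Starts outside these windows, in GAS5 as in other hosts, were not examined.

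The wider snoRNA pathway was described from lists of genes outside the set. The counts below stand against the shares of all genes called in each clone, which are 13.7% higher and 12.5% lower in KO-1, 21.9% and 21.1% in KO-2, 15% and 15.6% in KO-3, and 24.6% and 24.2% in KO-4. Of 44 other hosts, among them many ribosomal protein genes, 22 rose and 3 fell in KO-3, and 36 fell and 1 rose in KO-4. In KO-2, 3 rose and 11 fell, and in KO-1 4 rose and 4 fell. RPL12, of the large ribosomal subunit, rose in KO-3 (0.51) and fell in KO-1 and KO-4 (-0.17 and -0.46). MRPL3, a mitochondrial ribosomal protein, fell in KO-1, KO-2 and KO-4 (-0.21, -0.32 and -0.31), as did WDR43, a ribosome assembly factor (-0.20, -0.38 and -0.59). Of 19 snoRNP proteins and assembly factors, 15 fell in KO-4, 11 in KO-2 and 3 in KO-1, and in KO-3 2 rose. NOP56 and NOP58 stand in this list and among the 44 other hosts, so their falls in KO-2 and KO-4 are counted in each. FBL, the methyltransferase of C/D snoRNPs, fell in KO-1, KO-2 and KO-4 (-0.25, -0.46 and -0.49). The same clones held lower NHP2, a core H/ACA protein (-0.23, -0.16 and -0.41), and SHQ1, an H/ACA assembly factor (-0.31, -0.40 and -0.44). RUVBL1, an assembly ATPase, fell in KO-2 and KO-4 (-0.17 and -0.29). Of 17 genes of intron debranching, snoRNA trimming and nonsense-mediated decay, 4 rose and 4 fell in KO-4, close to the share of all genes, with 3 and 4 in KO-3, 1 and 7 in KO-2, and 2 and 1 in KO-1. UPF1, the helicase of nonsense-mediated decay, fell in KO-2 and KO-3 (-0.20 and -0.39), and SMG1, its kinase, in KO-2, KO-3 and KO-4 (-0.40, -0.47 and -0.28). AQR, a helicase of the intron-binding complex, fell in KO-1, KO-2 and KO-4 (-0.19, -0.32 and -0.53). TENT4B, a poly(A) polymerase of nuclear RNA decay, fell in KO-2, KO-3 and KO-4 (-0.27, -0.33 and -0.40). All 4 clones share the WT libraries, so counts for different clones are not independent.

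Retention was then compared. The retention level is the share of retained reads after division of each count by the effective length of its form. Where introns overlap or hold an annotated exon, the level can also move with the choice of junction, which was not separated from retention. Of the 467 introns, 271 averaged 10 or more retained and 10 or more spliced reads a library in at least 1 comparison, 242 in all 4 and 196 in none. Among the 242, introns holding a snoRNA had a median WT retention level of 18.6% (115 introns) and those without 3.0% (127 introns), against 8.63% over all 18064 introns tested in every clone. With no annotated exon inside the intron, the medians were 12% (45 introns) and 1.00% (74 introns). The introns with and without a snoRNA come from different mixes of host genes, and the part of the gene in these medians was not separated. Of introns testable in at least 1 comparison, 12 of 13 held a snoRNA in GAS5 (gene median in WT of 16.7%). In EEF2 1 of 9 did (0.200%), and in SNHG4 0 of 4 (51.1%). Among the same 242, the least retained were EEF2 introns chr19:3981453-3981946 (0.101% ± 0.0722, SD, n = 3) and chr19:3977611-3977818 (0.118% ± 0.0429) and RACK1 intron chr5:181239583-181241491 (0.121% ± 0.0586). The most retained of the 242 were EIF4A1 intron chr17:7577917-7578226 (99.4% ± 0.188), EIF4G2 intron chr11:10807320-10808704 (98.1% ± 0.528) and SNHG1 intron chr11:62852667-62852810 (97.3% ± 0.577), where nearly all reads crossed an exon-intron boundary. The EIF4A1 intron chr17:7577917-7578164, which starts at the same base, had a far lower level, given below. So high a level can reflect few spliced reads at 1 of several overlapping junctions, and need not mean that the RNA stays unspliced. All coordinates are in hg38.

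Changes of retention in the hosts were few and went both ways. A quasi-binomial test with Benjamini-Hochberg adjustment called 4 host introns higher and 4 lower of 247 in KO-1, where 1.29% of all introns were higher and 0.175% lower. In KO-2 it called 5 and 5 of 265 (1.30% and 0.304% of all), in KO-3 1 and 9 of 263 (0.558% and 0.155%), and in KO-4 10 and 5 of 262 (1.54% and 0.429%). These 43 calls fell on 35 introns of 14 genes, 22 of them with a snoRNA and 20 with an annotated exon inside. There were 7 introns called in more than 1 clone, none in opposite directions. The median host intron moved by 0.14, 0.09, -0.06 and 0.11 in log2 odds, and the median of all introns by 0.13, 0.10, 0.02 and 0.17. After centring on the median of all introns the calls were 0 higher and 6 lower, 1 and 16, 1 and 9, and 2 and 11 in KO-1 to KO-4. Limma on the log2 odds called no host intron in any clone, with 13, 9, 7 and 13 higher and 4, 4, 5 and 3 lower at an unadjusted p under 0.05. Centring ended 16 of the 43 calls, and in the authors' deposited table the FDR was 0.05 or above for 18 of them. Of the 43 calls, 6 held when any 1 library was left out, and centring ended 1 of these 6. In 41 of the 43 the libraries of the clone did not overlap those of WT, close to the 96.1% of called changes over all introns, the exceptions being GAS5 intron chr1:173864507-173864674 in KO-2 and EIF4A2 intron chr3:186787883-186789124 in KO-3. The libraries are numbered by their place in the deposited lists. Among the clones, 41 of 249 introns differed, against 6.41% of all.

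GAS5 had 21 listed introns. Of these 13 could be tested, 12 of them with a snoRNA, with WT levels from 1.55% to 87.8%. Among host introns, that of SNORD76 had the smallest adjusted p. It spans chr1:173866568-173866760 on the minus strand (hg38) and is 193 bases long. It is printed 5′ to 3′ with the snoRNA, bases 46 to 126, in capitals, which leaves 67 bases to its 3′ end.
GAS5 SNORD76 intron: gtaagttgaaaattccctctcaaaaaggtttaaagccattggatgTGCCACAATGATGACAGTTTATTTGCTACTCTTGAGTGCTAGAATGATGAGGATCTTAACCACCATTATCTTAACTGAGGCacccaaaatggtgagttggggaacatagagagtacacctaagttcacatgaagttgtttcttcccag
Retention of this intron was 20.7, 20.3 and 20.4% in the WT libraries, 20.1, 17.6 and 17.6% in KO-1 and 17.2, 19.4 and 18.1% in KO-2. It was 12.5, 16.4 and 14.8% in KO-3 and 19.8, 22 and 19.2% in KO-4. The KO-3 libraries lay below all WT libraries. The change in KO-3 was -0.61 ± 0.08 in log2 odds (SE, quasi-binomial adjusted p = 7.87e-08). It held without any 1 library (adjusted p of up to 9.48e-05), but limma on log2 odds did not call it (adjusted p = 0.689).

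The snoRNAs of the GAS5 introns that changed are shown to place these introns, from GRCh38 coordinates of RefSeq, with box C (TGATGA in the first 20 bases) and box D (the last CTGA) in capitals. SNORD47 has no exact TGATGA there.
SNORD76 (chr1:173866635-173866715, minus strand): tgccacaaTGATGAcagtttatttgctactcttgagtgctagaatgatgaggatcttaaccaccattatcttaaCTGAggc
SNORD79 (chr1:173865350-173865430, minus strand): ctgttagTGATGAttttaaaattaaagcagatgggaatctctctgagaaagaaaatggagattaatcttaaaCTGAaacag
SNORD47 (chr1:173864369-173864445, minus strand): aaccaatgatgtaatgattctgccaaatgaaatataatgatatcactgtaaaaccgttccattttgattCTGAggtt
SNORD81 (chr1:173864146-173864222, minus strand): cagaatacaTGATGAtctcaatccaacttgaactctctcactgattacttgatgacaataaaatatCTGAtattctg
The SNORD79 intron (chr1:173865283-173865470) was retained at 21.7, 22.9 and 24.7% in WT and 26.8, 27.8 and 26.2% in KO-4. It rose in KO-4 by 0.30 ± 0.09 in log2 odds (quasi-binomial adjusted p = 0.0494). The call ended without KO-4 library 1, 2 or 3 or WT library 1 or 2 (highest adjusted p = 0.267), and after centring on the median intron (adjusted p = 0.622). The other GAS5 introns fall outside the rule for named introns and were chosen after their values were seen. The SNORD81 intron (chr1:173864076-173864256) rose in KO-4 from a WT mean of 9.71% ± 0.356 (SD) to 13.2% ± 0.344. The SNORD47 intron (chr1:173864305-173864483) fell in KO-2 from 29.1% ± 0.769 to 24.7% ± 1.30, and the next intron, which holds no snoRNA (chr1:173864507-173864674), fell there from 36.4% ± 2.61 to 31.7% ± 2.49. The span of both with the exon between them fell in KO-3 from 87.8% ± 0.433 to 81.4% ± 2.16. The SNORD81 call ended without KO-4 library 1 or 3 (highest adjusted p = 0.0575), and after centring on the median intron (adjusted p = 0.191). The SNORD47 call ended without KO-2 library 3 (adjusted p = 0.0623). That of the intron after it ended without KO-2 library 2 or WT library 1 or 2 (highest adjusted p = 0.215). That of the span ended without KO-3 library 1 or WT library 1 or 2 (highest adjusted p = 0.361).

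**Figure D4:**
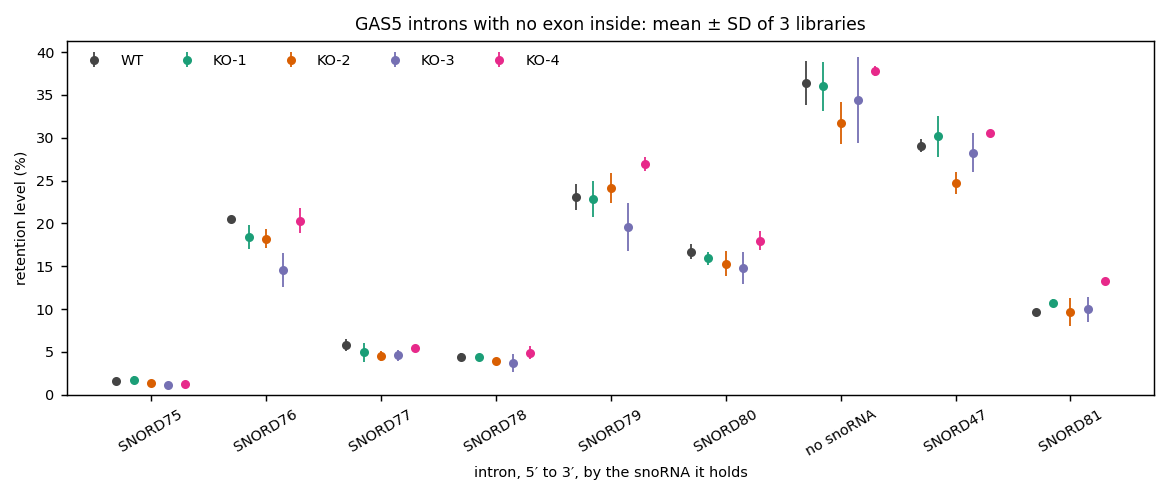
Retention level (y axis, percent) of GAS5 introns with no annotated exon inside, ordered 5′ to 3′ and named by the snoRNA they hold, as mean ± SD of 3 libraries per group. The introns differ from each other far more than the groups do, and the SNORD76 intron is lowest in KO-3 (14.6% ± 1.95 against 20.5% ± 0.236 in WT).

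SNHG19 has 1 listed intron, chr16:2154923-2155142, which holds SNORD60, printed with boxes C and D in capitals.
SNORD60 (chr16:2155023-2155105, minus strand): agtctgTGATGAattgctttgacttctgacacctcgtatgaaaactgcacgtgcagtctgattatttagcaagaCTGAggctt
It was retained at 38.3, 44.5 and 43.3% in WT, 29.3, 27.5 and 27.2% in KO-1 and 29.6, 27.4 and 30.7% in KO-2. In KO-3 it was 32.7, 36.4 and 30.4% and in KO-4 46.5, 43.8 and 44.4%. Retention fell in KO-1 (-0.90 ± 0.22 log2 odds, quasi-binomial adjusted p = 0.0111) and KO-2 (-0.81 ± 0.21, adjusted p = 0.0186). It was not called in KO-3 (-0.56 ± 0.20, adjusted p = 0.321). The spliced reads of this intron are also the SNHG19 spliced reads given above, so the level and the gene value are not independent. The KO-1 call ended without KO-1 library 1, 2 or 3 or WT library 2 (highest adjusted p = 0.136). The KO-2 call ended without KO-2 library 1 or 2 or WT library 2 (highest adjusted p = 0.143).

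SNHG29 carries a pair of related guides, SNORD49B and SNORD49A, in neighbouring introns. They are shown because introns that hold them changed, and they share an unbroken run of 35 bases. Boxes C and D are in capitals.
SNORD49B (chr17:16439509-16439556, plus strand): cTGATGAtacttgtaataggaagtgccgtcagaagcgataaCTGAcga
SNORD49A (chr17:16440036-16440106, plus strand): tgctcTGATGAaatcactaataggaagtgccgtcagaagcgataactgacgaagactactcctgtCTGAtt
The SNORD49B intron (chr17:16439415-16439580, named after its values were seen) was retained at 57.9, 56.3 and 57.1% in WT and 65.1, 65.9 and 65.0% in KO-4. It rose there by 0.50 ± 0.10 in log2 odds (quasi-binomial adjusted p = 0.000872). The call held without any 1 library but ended after centring on the median intron (adjusted p = 0.0833). The intron upstream, chr17:16439061-16439326, with no snoRNA and also named after its values were seen, went from 12, 16.1 and 17.3% in WT to 24.7, 23.3 and 22.2% in KO-4. Its rise of 0.81 ± 0.15 (adjusted p = 0.000326) held too. This intron and that of SNORD49B each have an annotated exon inside, so a shift of junction was not separated from retention. The span with both snoRNAs (chr17:16439415-16440184) was 4.32, 4.13 and 4.28% in WT and 5.15, 4.83 and 5.06% in KO-2, a rise of 0.25 ± 0.07 in log2 odds (adjusted p = 0.0417). The call ended without KO-2 library 1, 2 or 3 or WT library 1 or 2 (highest adjusted p = 0.204), and after centring on the median intron (adjusted p = 0.385). The SNORD65 intron (chr17:16440254-16441367) fell in KO-1, from 17.0, 18.1 and 18.9% to 12.1, 14.2 and 9.77% (-0.66 ± 0.18, adjusted p = 0.0281). That call ended without KO-1 library 1 or 3 or WT library 1 (highest adjusted p = 0.255). The overlapping intron chr17:16439394-16440184 had most retained reads in WT of all noncoding hosts, with a level of 99.9% ± 0.0464 (SD), and too few spliced reads to test.

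SNHG32 spans SNORD48 and SNORD52 in nested introns on chromosome 6, and the printed guides have boxes C and D in capitals.
SNORD48 (chr6:31835263-31835326, plus strand): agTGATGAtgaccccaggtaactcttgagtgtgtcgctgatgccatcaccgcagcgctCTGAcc
SNORD52 (chr6:31837076-31837139, plus strand): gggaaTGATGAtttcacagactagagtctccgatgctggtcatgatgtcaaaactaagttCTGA
The SNORD48 intron (chr6:31835201-31835410) was retained at 22, 21.8 and 27.6% in WT, 19.7, 18.1 and 17.4% in KO-1 and 17.8, 18.2 and 19.2% in KO-4. It fell in both clones, with log2 odds changes of -0.44 ± 0.11 and -0.46 ± 0.11 (quasi-binomial adjusted p of 0.0171 and 0.00607). The KO-1 call ended without KO-1 library 2 or 3 or WT library 3 (highest adjusted p = 0.169). The KO-4 call ended without KO-4 library 1 or 2 or WT library 3 (highest adjusted p = 0.0670). The SNORD52 intron (chr6:31836518-31837235, named after its values were seen) rose in KO-4, from 19.5, 17.4 and 22.4% in WT to 29.9, 29.4 and 29.9%. The change was 0.78 ± 0.16 (adjusted p = 0.00129) and held without any 1 library. An annotated exon lies inside this SNORD52 intron, so a shift of junction was not separated from retention. The longer intron with the same 3′ end (chr6:31835452-31837235), which AL671762.1 shares, fell in KO-1 from 17.2, 16.7 and 27.7% to 13.2, 13.4 and 9.88% (-0.85 ± 0.18, adjusted p = 0.00193). This call ended without WT library 3 (adjusted p = 0.0563). In KO-4 the intron chr6:31835452-31836423 rose (0.60) and the longest span chr6:31835201-31837235 fell (-0.92), both chosen after their values were seen. The rise ended without KO-4 library 1 or 2 or WT library 1 or 2 (highest adjusted p = 0.210), and after centring on the median intron (adjusted p = 0.206). The fall ended without KO-4 library 1 or 2 or WT library 2 (highest adjusted p = 0.212).

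**Figure D5:**
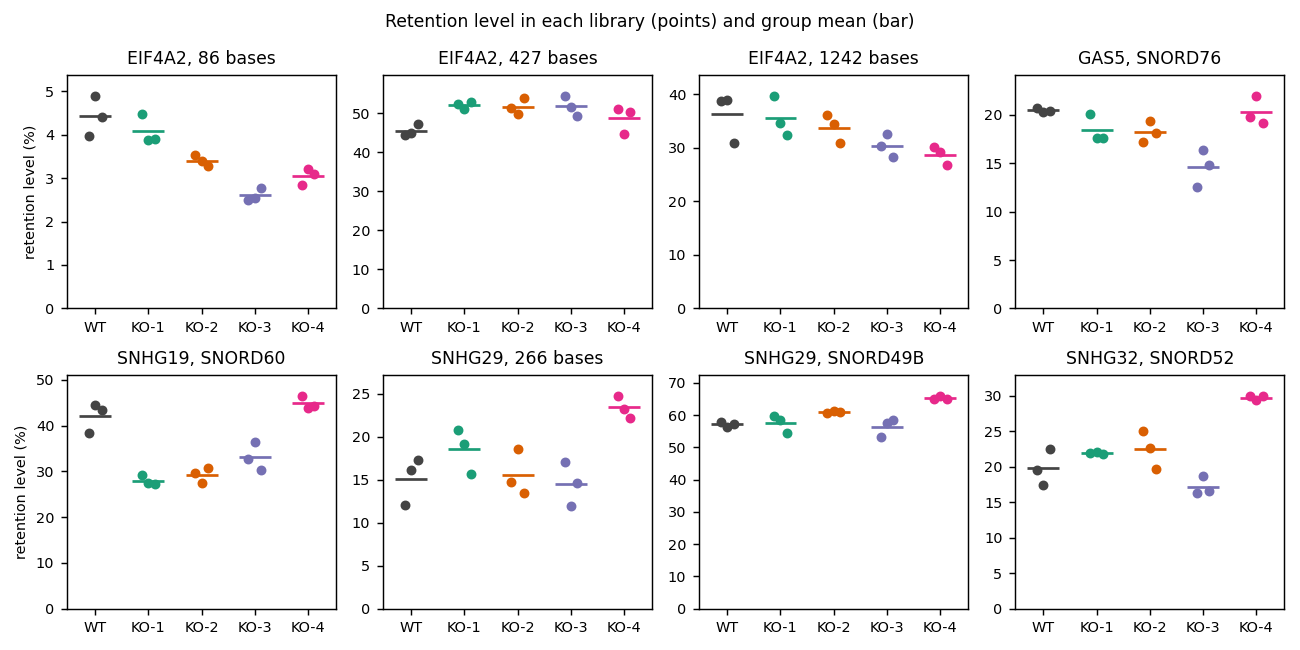
Retention level (percent, y axis) in each library (points) with the group mean (bar) for WT and KO-1 to KO-4, in the 6 host introns whose calls held without any 1 library, the SNORD60 intron and the EIF4A2 intron called in 3 clones. The SNORD76 intron of GAS5 is lowest in the 3 KO-3 libraries and the SNORD60 intron of SNHG19 is low in KO-1 (28.0% ± 1.15 against 42.1% ± 3.30 in WT).

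EIF4A2 gave more calls than any other coding host, 11 on 6 introns, with 5 lower and 1 higher in KO-3, 3 lower in KO-4 and 1 higher in each of KO-1 and KO-2. Its snoRNAs include SNORD2, printed with box D in capitals because its intron was among those lower in KO-3.
SNORD2 (chr3:186784796-186784865, plus strand): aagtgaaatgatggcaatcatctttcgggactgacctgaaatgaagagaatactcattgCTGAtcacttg
The 86-base intron chr3:186784478-186784563, with no snoRNA, was retained at 3.96, 4.89 and 4.41% in WT, 2.50, 2.55 and 2.78% in KO-3 and 2.83, 3.20 and 3.09% in KO-4. It fell in KO-3, with a log2 odds change of -0.79 ± 0.15 (quasi-binomial adjusted p = 0.000836), which held without any 1 library. It also fell in KO-4 (-0.57 ± 0.17, adjusted p = 0.0426). The KO-4 call ended without KO-4 library 1, 2 or 3 or WT library 2 (highest adjusted p = 0.235). The SNORD2 intron (chr3:186784697-186784961) went from 10.4, 8.07 and 7.93% in WT to 5.95, 7.02 and 5.84% in KO-3 (-0.53 ± 0.13, adjusted p = 0.0210). That call ended without KO-3 library 1 or 3 or WT library 1 (highest adjusted p = 0.437). The next intron (chr3:186785102-186785882) was 7.12, 6.89 and 6.53% in WT, 4.26, 5.50 and 4.88% in KO-3 and 4.61, 4.17 and 5.53% in KO-4, lower in both. The KO-3 call ended without KO-3 library 1 or 3 or WT library 1 or 2 (highest adjusted p = 0.349). The KO-4 call ended without KO-4 library 1 or 2 or WT library 1 (highest adjusted p = 0.170).

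Towards the 3′ end of EIF4A2, the SNORA63 intron (chr3:186787265-186787494) fell in KO-3, from 9.42, 9.25 and 8.31% to 6.66, 6.47 and 6.99% (-0.46 ± 0.11, quasi-binomial adjusted p = 0.0199). The fall ended without KO-3 library 1 or 2 or WT library 1 or 2 (highest adjusted p = 0.180). The last pair of overlapping introns starts at the same base, and their calls went in opposite directions. The longer has an annotated exon inside. A shift between the 2 junctions and a change in unspliced RNA cannot be told apart from these levels. The shorter (chr3:186787883-186788309) was retained at 44.3, 45.0 and 47.2% in WT, 52.4, 51.2 and 53.0% in KO-1 and 51.4, 49.7 and 54.0% in KO-2. In KO-3 it was 54.5, 51.6 and 49.3% and in KO-4 51.2, 44.7 and 50.2%. It rose in KO-1, KO-2 and KO-3 (0.39 ± 0.10, 0.37 ± 0.09 and 0.38 ± 0.09 log2 odds, adjusted p of 0.0124, 0.00939 and 0.0215), the only host intron called in 3 clones. In the authors' deposited table its FDR was 0.214, 0.210 and 0.267 in these clones. The KO-1 call ended without KO-1 library 1, 2 or 3 or WT library 1 (highest adjusted p = 0.137), and after centring on the median intron (adjusted p = 0.240). The KO-2 call ended without KO-2 library 3 or WT library 1 or 2 (highest adjusted p = 0.133), and after centring on the median intron (adjusted p = 0.120). The KO-3 call ended without KO-3 library 1 or 2 or WT library 1 or 2 (highest adjusted p = 0.419). The longer (chr3:186787883-186789124) fell in KO-4, from 38.8, 39.0 and 30.9% to 30.1, 29.3 and 26.8% (-0.49 ± 0.09, adjusted p = 7.43e-05), and held without any 1 library. It fell in KO-3 as well, to 30.3, 32.6 and 28.3%, which overlaps the WT range (-0.37 ± 0.09, adjusted p = 0.0124). The KO-3 call ended without KO-3 library 1 or 3 or WT library 1 or 2 (highest adjusted p = 0.295).

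In SNHG6 the intron chr8:66922393-66925436, which holds SNORD87, rose in KO-2 and KO-4. Its levels were 51.7, 42.7 and 49.5% in WT, 69.7, 63.5 and 59.8% in KO-2 and 58.0, 63.1 and 59.2% in KO-4. The changes were 0.97 ± 0.20 and 0.73 ± 0.21 in log2 odds (quasi-binomial adjusted p of 0.00171 and 0.0436). The KO-2 call ended without WT library 2 (adjusted p = 0.0524). The KO-4 call ended without KO-4 library 1, 2 or 3 or WT library 2 (highest adjusted p = 0.295), and after centring on the median intron (adjusted p = 0.231). A shorter intron with the same end (chr8:66922726-66925436) fell in KO-3, from 3.86, 4.02 and 5.99% to 2.85, 3.46 and 2.50% (-0.64 ± 0.16, adjusted p = 0.0385). That call ended without KO-3 library 1 or 3 or WT library 3 (highest adjusted p = 0.273). In SNHG1 the span of SNORD27 and SNORD28 (chr11:62854552-62855132) fell in KO-3, from 79.3, 63.2 and 70.2% in WT to 58.2, 60.1 and 52.3% (-0.87 ± 0.20, adjusted p = 0.00777). This fall ended without KO-3 library 3 or WT library 1 (highest adjusted p = 0.354). The SNORD27 intron alone (chr11:62854939-62855132, chosen after its values were seen) fell in KO-2 (log2 odds change of -0.39). This fall ended without KO-2 library 1 or 2 or WT library 1 (highest adjusted p = 0.344). In SNHG12 the SNORA44 intron (chr1:28579982-28580559) rose in KO-1, from 5.02, 4.1 and 7.19% to 12.2, 7.85 and 8.58% (0.92 ± 0.25, adjusted p = 0.0432). The rise ended without KO-1 library 1, 2 or 3 or WT library 1 or 2 (highest adjusted p = 0.606), and after centring on the median intron (adjusted p = 0.133).

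RACK1, EIF4A1, EIF4G2, HSPA8, HSPA9 and NCL had 1 or 2 calls each. In RACK1 the intron of SNORD96A (chr5:181241640-181242173) fell in KO-2, from 1.46, 1.49 and 1.60% to 1.23, 0.986 and 1.03% (-0.50 ± 0.11 log2 odds, quasi-binomial adjusted p = 0.00365), and chr5:181238240-181239066 rose in KO-1, from 1.03, 0.933 and 1.13% to 1.56, 1.55 and 1.25% (0.52 ± 0.14, adjusted p = 0.0396). The fall ended without KO-2 library 2 (adjusted p = 0.0705). The rise ended without KO-1 library 1 or 2 or WT library 1 or 2 (highest adjusted p = 0.360), and after centring on the median intron (adjusted p = 0.240). In EIF4A1 the SNORA67 intron (chr17:7577917-7578164) rose in KO-4, from 3.31, 2.54 and 3.13% to 3.73, 4.07 and 3.41% (0.35 ± 0.10, adjusted p = 0.0448). That rise ended without KO-4 library 1 or 2 or WT library 2 (highest adjusted p = 0.423), and after centring on the median intron (adjusted p = 0.513). Outside the rule, single rises were called in EIF4A1 intron chr17:7578245-7578341 (0.64 log2 odds) and HSPA9 intron chr5:138556867-138557401 (0.66) in KO-4, in NCL intron chr2:231455625-231456009 (1.08) and HSPA8 intron chr11:123061330-123062346 (1.53) in KO-2, and in EIF4G2 intron chr11:10803295-10803479 (1.22) in KO-1. The EIF4A1 call ended without KO-4 library 1 or 2 or WT library 2 (highest adjusted p = 0.308) and that of HSPA9 without KO-4 library 1, 2 or 3 or WT library 2 (highest adjusted p = 0.422). That of NCL ended without KO-2 library 1, 2 or 3 or WT library 1 or 2 (highest adjusted p = 0.243), that of HSPA8 without KO-2 library 1, 2 or 3 or WT library 1 or 2 (highest adjusted p = 0.228) and that of EIF4G2 without KO-1 library 1, 2 or 3 or WT library 1 or 2 (highest adjusted p = 0.275). After centring on the median intron all 5 ended, with adjusted p from 0.0653 to 0.163. The introns with most retained reads in WT per role were HSPA8 chr11:123057829-123058766 (99.9% ± 0.0385, SD), TAF1D chr11:93733398-93734962 (97.3% ± 1.33), RACK1 chr5:181241640-181242285 (99.99% ± 0.00981) and RABGGTB chr1:75790058-75790151 (60.5% ± 1.73), all on introns with an annotated exon inside. None of these was called, and that of RACK1 could be tested in no clone. The RACK1 intron shares 1 end with that of SNORD96A, which was retained at 1.46, 1.49 and 1.60% in WT. No tested intron of CWF19L1, DKC1, EEF2, PPAN, RABGGTB, TAF1D or TNPO2 was called.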

How the data were processed

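Junction reads of 15 libraries, 3 of WT and 3 of each clone, were analysed from 4 tables that the authors deposited, 1 for each clone against WT. The submitters' processing notes name cutadapt 2.0 and STAR 2.7.1a as tools and hg38 as the build. The junction counter is not given in the sources used here. Per the file headers, each line gives an intron with lists of retained and spliced counts, effective lengths, inclusion levels (a fraction per library, recomputed here), and p-values and FDR values, which the authors deposited from a test that is not named. Recomputed levels differed from the deposited ones by at most 0.0005. Where several libraries share a list they are numbered by place, not by replicate.

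Introns averaging 10 retained and 10 spliced reads or more were tested with a quasi-binomial model, with dispersions moderated by limma 3.58.1 (R 4.3.3) and floored at 1, adjusted by Benjamini-Hochberg over all introns of the table. Spliced reads per gene (mean of 50 or more, 9471 genes) were scaled by the median ratio and fitted with limma (trend) on log2 of scaled reads plus 0.5 over all 15 libraries. The limma fit stands in for a count-model test named in the design, which was not run. Both were tested on simulated data. Exons came from GENCODE 29, snoRNA coordinates, promoters and transcript starts from RefSeq.

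The host genes and all lists were chosen with earlier results of these data known. Values per library are given for up to 20 called introns by smallest median adjusted p, the introns with most retained reads in WT per role, the 3 most and 3 least retained, genes called in at least 2 clones in 1 direction, and the largest rise and fall per clone. From each list outside the set, up to 4 genes with the smallest median p are named. Alternatives were the filters, thresholds, scalings, tests and left-out libraries of the closing section.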

Additional observations from a re-analysis of the deposited data

Results flagged for a closer look

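The change against WT differed among the 4 clones for 28 host genes in spliced reads (limma F test, Benjamini-Hochberg adjusted p under 0.05). That test took the contrasts among clones from the fit of all 15 libraries. CWF19L1 had the widest range over the clones, 1.58 in log2 change, and its values are listed with the rest. These ranges were, in falling order, CWF19L1 1.58, SNHG19 1.49, SNHG8 1.13, SNHG5 1.01, SNHG4 0.99, SNHG29 0.77, SNHG1 0.74, SNHG16 0.69, EIF4A2 0.66, RABGGTB 0.66, GAS5 0.64, SNHG6 0.63, SNHG3 0.62, SNHG7 0.61, SNHG21 0.61, SNHG12 0.56, NCL 0.54, RACK1 0.50, HSPA9 0.49, EIF4A1 0.49, TAF1D 0.46, EEF2 0.44, SNHG32 0.41, DKC1 0.41, TNPO2 0.38, SNHG15 0.38, PPAN 0.25 and EIF4G2 0.22. SNHG21 was the closest to the threshold, with an adjusted p of 0.0497, and was called against WT in no clone.

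Retention differed among the clones for 23 of the introns called against WT in at least 1 clone (quasi-binomial F test, Benjamini-Hochberg adjusted p under 0.05). The ranges over the clones are given in log2 odds. In EIF4A2 the range was 0.68 for chr3:186784478-186784563, 0.70 for chr3:186785102-186785882 and 0.45 for chr3:186787883-186789124. For GAS5 it was 0.51 for chr1:173864076-173864256, 0.43 for chr1:173864305-173864483, 1.06 for chr1:173864305-173864674, 0.39 for chr1:173864507-173864674, 0.62 for chr1:173865283-173865470 and 0.60 for chr1:173866568-173866760. In HSPA9 the range was 0.60 for chr5:138556867-138557401. For RACK1 it was 0.59 for chr5:181238240-181239066 and 0.42 for chr5:181241640-181242173. In SNHG1 the range was 1.42 for chr11:62854552-62855132 and 0.65 for chr11:62854939-62855132. For SNHG19 it was 1.06 for chr16:2154923-2155142. In SNHG29 the range was 0.84 for chr17:16439061-16439326, 0.56 for chr17:16439415-16439580, 0.48 for chr17:16439415-16440184 and 1.25 for chr17:16440254-16441367. For SNHG32 it was 0.81 for chr6:31835452-31836423, 0.82 for chr6:31835452-31837235 and 1.03 for chr6:31836518-31837235. In SNHG6 the range was 0.95 for chr8:66922393-66925436. All clones were compared with the same WT libraries, and no cause of the differences was tested.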

How the results depend on the processing

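Host gene calls in spliced reads were steadier than calls of retention. Of 59 named gene calls, 45 held in every setting and 43 of 584 alternative values were weaker, none reversed. Of 43 intron calls, 0 held in every setting and 6 held whichever library was left out. Of their 470 alternative values, 207 were weaker, among them every value from limma, and none reversed. The cause of a lost call was not tested. Depth limits the retention test, since 196 host introns had too few reads, and spliced reads say nothing of snoRNA levels. No paired analysis was possible because the deposited lists carry no replicate numbers. The planned count-model tests, their other size factors and the replicate block were not run. The voom, total-scaling and no-exon alternatives were chosen after seeing the data.

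Counts of host introns called for retention moved by setting, given as higher and lower for KO-1 through KO-4 in turn. Against 4 and 4, 5 and 5, 1 and 9, and 10 and 5, limma on log2 odds gave 0 and 0 in every clone, and over all introns it called 41 and 1, 7 and 2, 12 and 1, and 8 and 0. An adjusted p of 0.01 gave 0 and 1, 2 and 3, 0 and 3, and 4 and 2. Centring on the median intron gave 0 and 6, 1 and 16, 1 and 9, and 2 and 11. Without introns that hold an annotated exon there were 2 and 1, 2 and 4, 1 and 5, and 3 and 2. With no filter on reads KO-2 had 9 and 12, and KO-3 had 2 and 14. With a mean of 50 reads KO-1 had 2 and 4, and KO-3 had 0 and 5. The authors' deposited FDR gave 8 and 3 in KO-2 and 1 and 5 in KO-3. Leaving out 1 library at a time gave 0 to 5 higher and 1 to 3 lower in KO-1, 0 to 8 and 1 to 10 in KO-2, 0 to 3 and 3 to 11 in KO-3, and 3 to 20 and 1 to 6 in KO-4.

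Counts of host genes called in spliced reads moved less. The main counts were 4 higher and 4 lower in KO-1, 8 and 5 in KO-2, 14 and 2 in KO-3, and 0 and 22 in KO-4. An adjusted p of 0.01 left 3 and 2, 6 and 3, 11 and 2, and 0 and 18. Introns of 1 gene name left 4 and 3, 8 and 3, 12 and 2, and 0 and 20. Leaving out 1 library gave 3 to 5 higher and 2 to 6 lower in KO-1, 6 to 8 and 3 to 5 in KO-2, 11 to 14 and 2 in KO-3, and 0 and 20 to 22 in KO-4.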
